A study of Mus musculus with 20 samples.

Results

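The genes described here build and deliver iron-sulfur clusters in mitochondria: Iscu, Nfs1, Glrx5, Isca1, Isca2, Hscb, Nfu1 and Bola3. They were taken by gene symbol, as every probe set that the platform annotation assigns to 1 of these 8 genes. This gave 14 probe sets of the 45037 on the array that are not manufacturer's controls. Of these, 12 were bright enough to be tested, among 30153 tested in all, and each of the 8 genes kept at least 1 of them. The remaining pair, Bola3 1445696_x_at and 1458384_at, never reached the median of an array, and the deposited log2 values lay near 3 for the first and near 5 for the second.

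The study looked for the mRNAs that iron regulatory protein 2 (IRP2) binds in RNA of mouse tissues. IRP2 is a cytoplasmic protein that binds stem-loops called iron-responsive elements (IREs). In the IRP2 reaction, recombinant IRP2 with a His tag, made in E. coli, was mixed with 50 µg of total RNA and recovered with an anti-His tag antibody, and the control reaction left the protein out. Both reactions were run on RNA of 5 tissues of C57BL6/J mice of both sexes and hybridised to Affymetrix Mouse Genome 430 2.0 arrays, with 2 arrays per tissue and reaction and 20 in all. Duodenum, liver and spleen came from mice kept for 21 days from weaning on food with under 10 mg iron per kg, 4 mice to a tissue pool. For bone marrow and brain the mice were 8 to 10 weeks old and ate an iron-normal diet, 6 mice to a tissue pool. Between these sets, tissue cannot be told apart from diet or age. The labels do not say whether replicate reactions used separate pools, so p-values here cover array-to-array spread, which may be technical. The assay reads binding to purified RNA in a tube, with no tissue protein present.

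Iron-sulfur clusters are cofactors of the respiratory chain, the citrate cycle, lipoic acid synthesis and DNA repair. In the mitochondrial matrix, the desulfurase Nfs1 draws sulfur from cysteine and the scaffold Iscu receives it with iron to form a cluster. The co-chaperone Hscb then helps to release the cluster, the glutaredoxin Glrx5 relays it, and Isca1 and Isca2 take part in making the larger cubane clusters. Nfu1 and Bola3 act late, in delivery to enzymes such as lipoic acid synthase. IRP1, the relative of IRP2, itself holds such a cluster and binds IREs when it is lost. In zebrafish, loss of Glrx5 impairs heme synthesis in red cells.

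The upstream sequences of Glrx5 and Isca1 are shown because these members had the widest spread of level across tissues and stood highest in bone marrow after quantile normalization. Both are the 160 bases just before the RefSeq start in build GRCm38.p6, written 5′ to 3′ on the gene's strand, with each CCAAT box, read on either strand, in capitals. Glrx5 lies on the plus strand at chr12:105032458-105032617 and Isca1 on the minus strand at chr13:59769790-59769949.
Glrx5: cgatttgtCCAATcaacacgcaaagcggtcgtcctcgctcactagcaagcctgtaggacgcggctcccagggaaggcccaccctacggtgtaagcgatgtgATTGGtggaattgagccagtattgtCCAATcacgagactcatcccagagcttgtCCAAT
Isca1: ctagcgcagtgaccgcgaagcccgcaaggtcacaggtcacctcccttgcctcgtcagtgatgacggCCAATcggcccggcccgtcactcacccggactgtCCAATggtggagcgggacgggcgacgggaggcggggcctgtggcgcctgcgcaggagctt

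Glrx5 held 4 such boxes in this stretch and Isca1 held 2. Over the full RefSeq windows, from 250 bases before to 50 bases after the start, 1.06% of all 32851 windows held at least 4 and 11.7% held at least 2. GATA letters, AGATA or TGATA with A or G after them, were searched on both strands, can share at most end letters with CCAAT, and occurred in neither window, against 29.8% of all windows. Of the 6 members with a window in the table, Nfs1, Glrx5, Isca1, Isca2, Nfu1 and Bola3, with 8 windows, only Isca2 held these GATA letters. CCAAT boxes occurred in 6 of these 8 windows, against 37.4% of all windows. The Bola3 windows with boxes overlap and hold the same boxes, so these windows are not separate sequences. Isca2 and Bola3, whose sequences are not shown, also had windows with 2 boxes. The loop letters of an IRE, CAGTGN, were searched on the transcript strand in the first 50 transcribed bases and occurred in 0 of the 8 windows, against 7.08% of all windows. They were likewise in 0 of the 5 windows of the IRE mRNAs Tfrc, Alas2 and Fth1. Because this search missed mRNAs with a known IRE, it cannot show whether a member mRNA holds one. These matches describe letters and not sites.

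Array values fell into different ranges. The array median was 5.65 to 5.71 in duodenum, in liver and in brain replicate 1. In brain replicate 2, spleen and bone marrow it was 5.39 to 5.55. The brain replicates were the least alike, with a Spearman correlation of 0.943 between the IRP2 arrays and 0.947 between the control arrays, against 0.975 and 0.969 in bone marrow. Control bone marrow replicate 1 correlated with the spleen at 0.955 (Spearman, averaged over spleen arrays), and the remaining bone marrow arrays at 0.915 to 0.917. Its log2 values had an SD of 2.13, against 1.86 to 1.93. Averaged over its genes, each tissue's marker list was highest in its own tissue, but not every single gene was. The brain marker Gfap was 6.66 and 6.35 in control brain, against 6.93 and 6.52 in control liver. The liver marker Alb was 5.20 and 9.19 in control spleen. The duodenum marker Fabp2 was 12.02 and 11.95 in control liver. What this means for the member levels was not tested. Acinar pancreas markers averaged a deposited log2 value of 12.01 in control duodenum, and their part in the duodenum values was not tested.

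No iron-sulfur cluster assembly mRNA passed the test for a different recovery in the IRP2 reaction than in the control reaction. With limma on the deposited log2 values, 0 of 12 probe sets passed an adjusted p under 0.05 in the mean over the 5 tissues, where 0.371% of all tested probe sets passed. Across the 12, the log2 difference of IRP2 minus control ran from -0.21 to 0.18, with a median of -0.10, and 10 of 12 were below 0. Over all tested probe sets the median was -0.02 and 57.0% were below 0. The smallest unadjusted p was 0.175, and the smallest adjusted p was 0.9997.

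Of 6 listed mRNAs with a known IRE, 4 passed this test on their brightest probe set. Tfrc, the transferrin receptor, averaged 13.54 in the IRP2 reactions and 11.64 in the control reactions, a difference of 1.90 ± 0.12 (SE, 20 arrays, limma adjusted p = 8.32e-07). Slc11a2, the iron importer of the gut, differed by 1.45 ± 0.12, Alas2, the first enzyme of erythroid heme synthesis, by 1.52 ± 0.11, and Fth1, the ferritin heavy chain, by 0.83 ± 0.09. Slc40a1, the iron exporter ferroportin, at 0.45 ± 0.12 (adjusted p = 0.356), and Epas1, the hypoxia factor HIF-2alpha, at 0.46 ± 0.14 (adjusted p = 0.576), did not pass on this probe set. Of the 2 tested probe sets of each of these genes, 1 did pass, while Slc11a2 passed on 1 of 4. The brightest probe sets of Slc40a1 and Epas1 passed with the replicate block (adjusted p = 0.0303 and 0.0112), Slc40a1 being higher with IRP2 in 9 of 10 pairs and Epas1 in 8. Their 95% intervals without the block began at 0.18 and 0.16, within the range of the members' limits. Without a replicate block, the members' 95% limits ran from -0.63 to 0.67, the highest being Hscb, which allows up to 1.59-fold. With tissue and replicate number as a block, they ran from -0.51 to 0.35, which allows up to 1.27-fold.

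**Figure D1:**
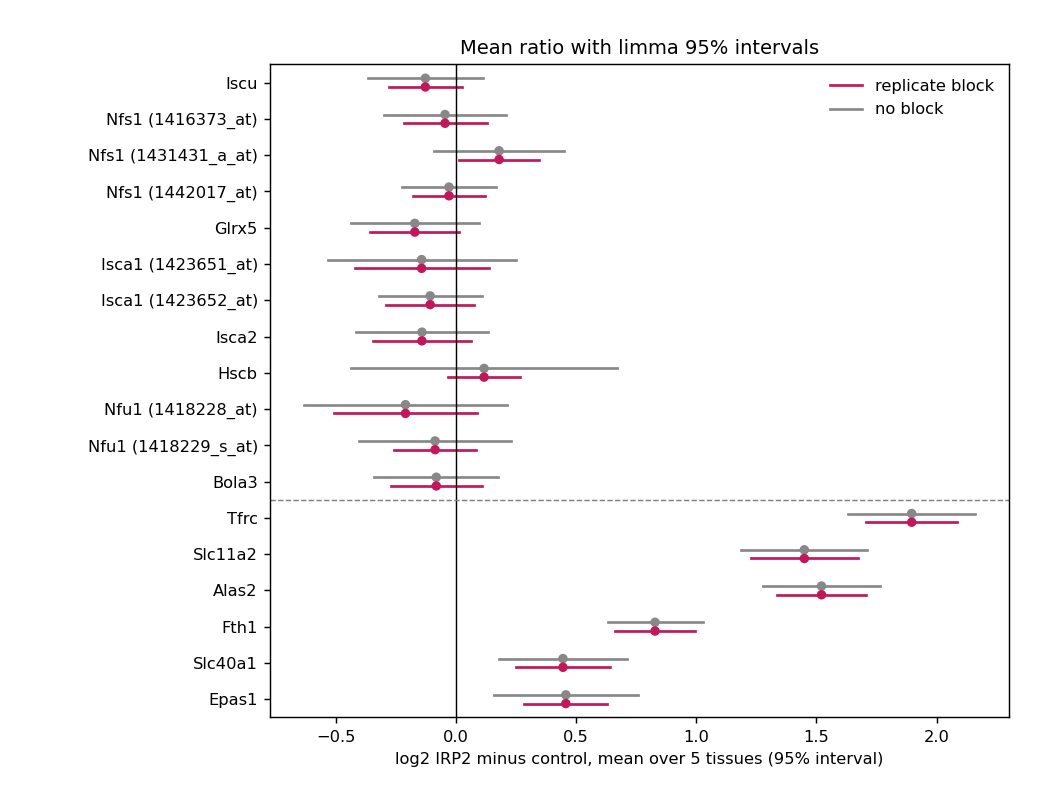
Mean log2 difference of the IRP2 reaction minus the control reaction over 5 tissues, with limma 95% intervals, for the 12 member probe sets (above the dashed line) and 6 IRE mRNAs (below it), without a block (grey) and with a replicate block (red). Members lie between -0.21 and 0.18, and the IRE mRNAs between 0.45 and 1.90.

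Iscu, the scaffold, is shown first, as log2 values with IRP2 replicates 1 and 2 ahead of the matching control replicates. Its deposited values in duodenum were 7.90 and 8.26 in the IRP2 reactions, against 7.83 and 8.27 in the control reactions. In liver they were 8.72 and 8.76 with IRP2, against 8.76 and 8.79, and in spleen 8.96 and 8.86 with IRP2, against 9.11 and 9.02. In bone marrow they were 7.92 and 8.03 with IRP2, against 8.61 and 8.14, and in brain 8.35 and 8.89 with IRP2, against 8.44 and 8.94. The IRP2 array was the lower one in 9 of 10 pairs, by small amounts outside bone marrow pair 1, and the groups overlapped in duodenum, liver and brain. The mean difference was -0.13 ± 0.11 (SE, limma adjusted p = 0.9997) and did not pass the test, and with the block the adjusted p was 0.504.

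Nfs1, the desulfurase, was read by 3 probe sets, whose mean differences were -0.04 ± 0.12 for the brightest, 1416373_at, 0.18 ± 0.13 for 1431431_a_at and -0.03 ± 0.09 for 1442017_at (SE). The brightest was higher with IRP2 in 5 of 10 pairs, 1431431_a_at in 8 and 1442017_at in 5. The 1431431_a_at probe set is dim, with values between 5.50 and 6.59 on the 20 arrays, and 1442017_at is dimmer, between 5.15 and 5.77. For the mean over tissues, 1431431_a_at had the smallest p of the members under the block, at 0.036 unadjusted and 0.392 adjusted by limma. The probe sets of this gene thus disagreed in sign, and none passed the test.

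Hscb, the co-chaperone, differed more between replicates than between reactions in brain, duodenum and bone marrow. In brain it was 9.92 and 8.21 in the IRP2 reactions, against 9.88 and 8.08 in the control reactions. In duodenum it was 10.31 and 9.29 with IRP2, against 10.29 and 9.65, and in bone marrow 9.07 and 10.23 with IRP2, against 8.69 and 9.45. Replicate 1 was thus far higher in brain and duodenum and lower in bone marrow, in both reactions alike, while liver replicates differed by 0.04 in either reaction. In liver it was 10.24 and 10.19 with IRP2, against 10.07 and 10.03, so that the groups did not overlap, at a difference of 0.17 (limma adjusted p = 0.9999). In bone marrow IRP2 minus control was 0.38 in pair 1 and 0.78 in pair 2, a mean of 0.58 that did not pass the test with the block either (limma, unadjusted p = 0.0027, adjusted p = 0.0885). The mean difference of IRP2 minus control was 0.12 ± 0.26 (SE), and the block brought its SE to 0.07.

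Glrx5, the cluster relay, had deposited log2 values of 10.34 and 10.79 in the duodenum IRP2 reactions, against 10.24 and 10.85 in the control reactions. In liver it had 10.88 and 11.08 with IRP2, against 11.22 and 11.15, and in spleen 11.78 and 11.78 with IRP2, against 11.81 and 12.04. In bone marrow it had 11.19 and 11.24 with IRP2, against 12.03 and 11.21, and in brain 10.10 and 10.38 with IRP2, against 10.16 and 10.56. The IRP2 array was lower in 8 of 10 pairs, yet the mean difference of -0.17 ± 0.12 (SE, limma adjusted p = 0.9997; 0.464 with the block) did not pass the test.

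Isca1 and Isca2, the partners in cubane cluster assembly, gave -0.14 ± 0.18 and -0.11 ± 0.10 for the Isca1 probe sets 1423651_at and 1423652_at, and -0.14 ± 0.13 for Isca2 (SE). Isca1 1423651_at was higher with IRP2 in 5 of 10 pairs, and 1423652_at and Isca2 in 3 each. Among the delivery factors, Nfu1 gave -0.21 ± 0.20 on 1418228_at and -0.09 ± 0.15 on 1418229_s_at, and Bola3 gave -0.08 ± 0.12. None of these passed the test.

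**Figure D2:**
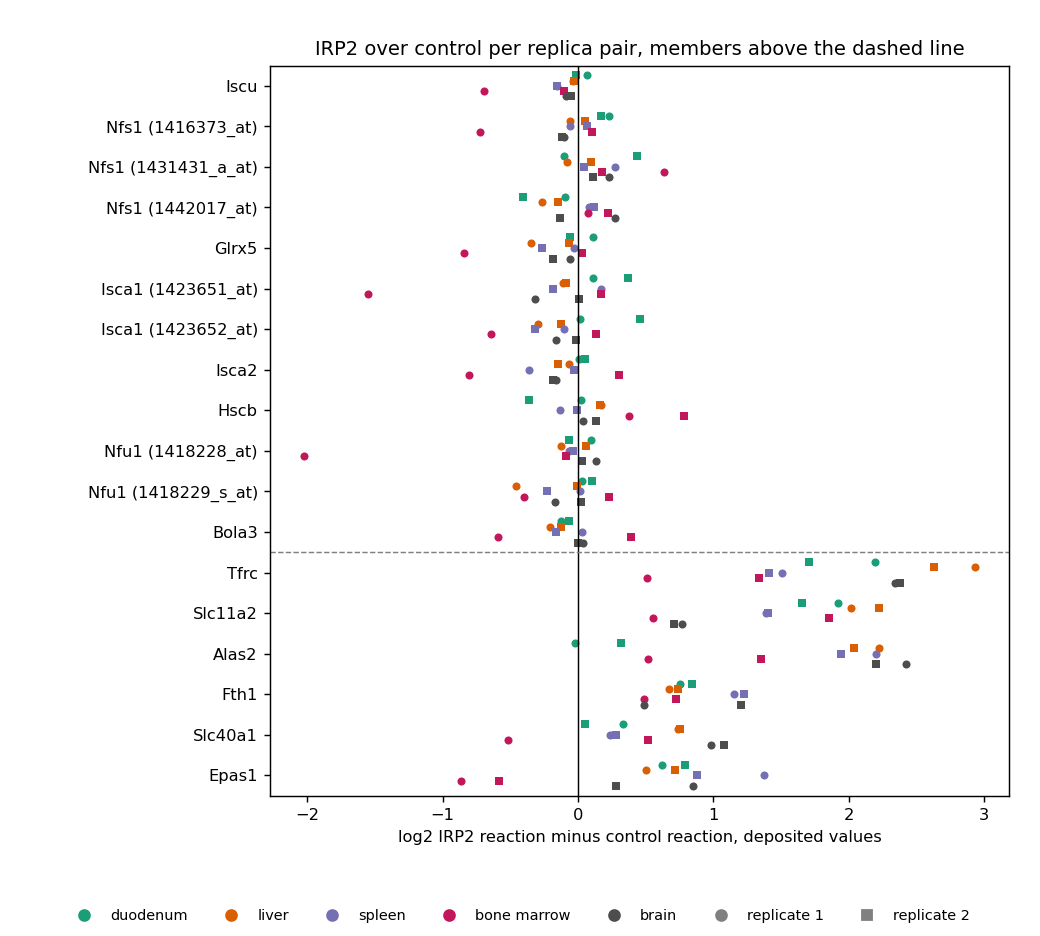
Log2 difference of IRP2 minus control for each of 10 replica pairs (circles, replicate 1; squares, replicate 2; colours, tissues) of the 12 member probe sets and, below the dashed line, 6 IRE mRNAs. All 96 member pairs outside bone marrow lie between -0.46 and 0.46, whereas bone marrow reaches -2.02.

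By tissue, 0 of 12 member probe sets passed in duodenum (0.073% of all tested passed), liver (0.0332%), spleen (0.063%), bone marrow (0.00995%) or brain (0.063%). With the replicate block the members again gave 0 of 12 in the mean (1.21% of all), duodenum (0.295%), liver (0.219%), spleen (0.305%), bone marrow (0.726%) and brain (0.143%). The F test that the IRP2 effect differs between tissues also called 0 of 12, against 0.00332% of all. These low background shares set how much a count of 0 can say, and the intervals above carry the size.

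Bone marrow held the widest member differences, as it did over all tested probe sets. Over all of these, the SD of the differences was 0.568 in bone marrow pair 1 and 0.312 in pair 2, against 0.21 to 0.28 elsewhere. Of the 24 bone marrow member pairs, 10 lay past 0.5 in either direction, against 0 of the 96 pairs in the other tissues. The share of all tested probe sets was not computed for the counts in this paragraph, so they cannot set the members apart. Pair 1 was below 0 for 9 of 12 probe sets and pair 2 for 2 of 12. The control replicate 1 array was the highest of the 4 bone marrow arrays for 9 of the 12 probe sets, and this is the array with the higher correlation to spleen.

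Nfu1 1418228_at showed this most. It was 6.44 and 6.87 in the bone marrow IRP2 reactions, against 8.47 and 6.96 in the control reactions. Both IRP2 arrays lay below both control arrays, but 3 of the 4 values lay close together and control replicate 1 lay far above. The difference was -1.06 ± 0.44 (SE, limma unadjusted p = 0.031, adjusted p = 0.736), and without control replicate 1 it was -0.30. The second Nfu1 probe set, 1418229_s_at, gave -0.09 in the same tissue. Left without control replicate 2, so that control replicate 1 stood alone, 2 of 12 probe sets were called, Nfu1 1418228_at at -1.81 (adjusted p = 0.0347) and Isca2 at -0.87 (adjusted p = 0.0335), where 5.86% of all tested probe sets were called too. Isca2 turned to 0.37 without control replicate 1.

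**Figure D3:**
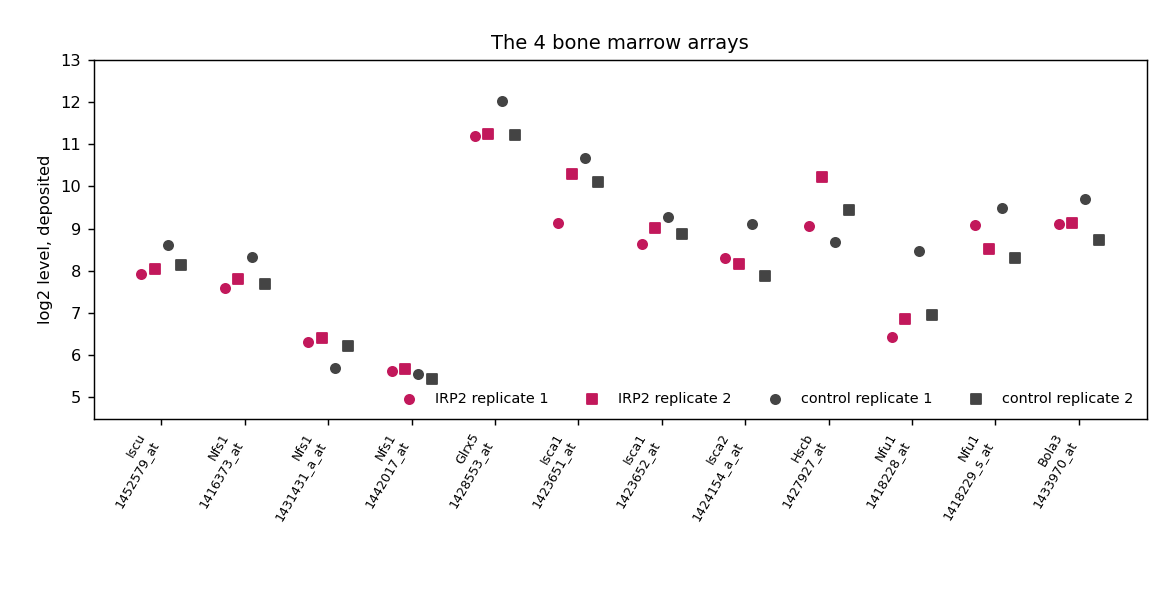
Deposited log2 values of the 12 member probe sets on the 4 bone marrow arrays (red, IRP2; grey, control; circles, replicate 1; squares, replicate 2). Control replicate 1 is the highest array for 9 of 12 probe sets, and for Nfu1 1418228_at it stands at 8.47, against 6.44 to 6.96 on the others.

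No neighbouring gene of the pathway passed the test without a block either. Of 14 listed genes of mitochondrial assembly other than the members, 10 were tested and 0 passed in either direction, with a median difference of -0.09. The 4 with the smallest p were Iba57, a partner of Isca1 and Isca2, at -0.22 ± 0.11, Ndufab1, the acyl carrier protein of the desulfurase complex, at -0.13 ± 0.13, the iron importer Slc25a37 at -0.11 ± 0.16 and Nubpl, which serves complex I, at -0.08 ± 0.12 (SE). Of 22 listed proteins that hold a cluster, 21 were tested and 0 passed, with a median of -0.05. Their lowest p belonged to Uqcrfs1 of complex III at -0.18 ± 0.13, Rtel1, a DNA helicase, at -0.18 ± 0.14, Sdhb of complex II at -0.19 ± 0.15 and Fech, the last enzyme of heme synthesis, at -0.16 ± 0.13.

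In the cytosolic assembly list 11 of 12 genes were tested and 0 passed, with a median of -0.05. Ciapin1, which passes electrons to the cytosolic machinery, stood highest: it averaged 9.24 in the IRP2 reactions and 8.88 in the control reactions. Its difference was 0.36 ± 0.12 (SE, limma adjusted p = 0.811), it was higher with IRP2 in 10 of 10 pairs, and with the replicate block the adjusted p was 0.0361, a call. The block called 2 of its 4 tested probe sets, and the brightest is of the type that can share sequence with other genes. The next genes of that list were Mms19 at -0.13 ± 0.12, Glrx3 at -0.12 ± 0.10 and Bola2 at -0.12 ± 0.12 (SE). On their brightest probe sets, 4 of the 6 IRE mRNAs passed without the block and 6 with it, with a median of 1.14.

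**Figure D4:**
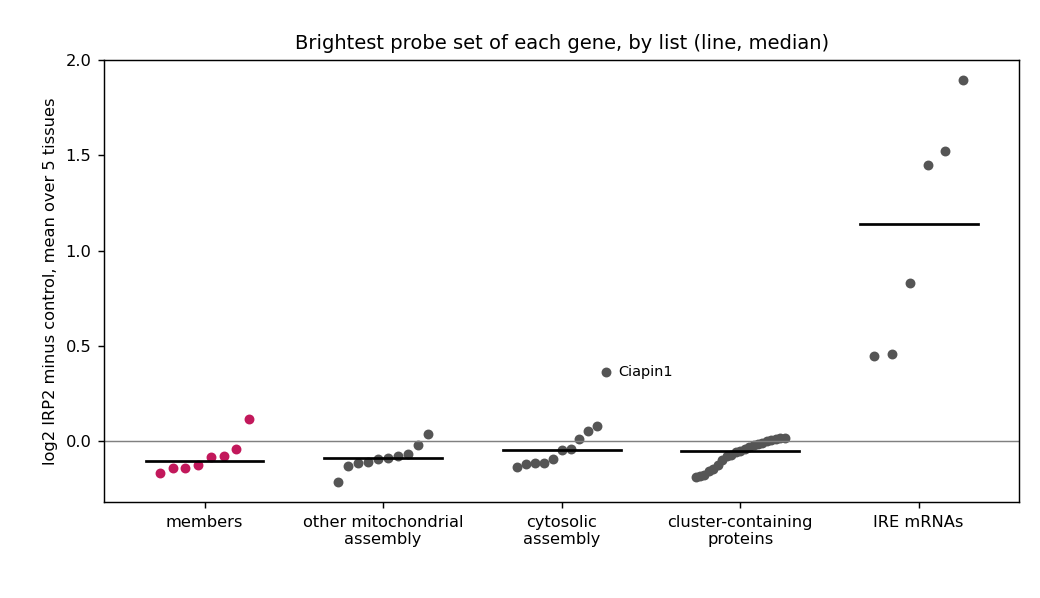
Mean log2 difference of IRP2 minus control on the brightest probe set of each gene, for the 8 members and 4 lists, with the median as a line. The medians of the members and the 3 assembly and cluster lists lie between -0.11 and -0.05, and that of the IRE mRNAs at 1.14.

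The control reactions also give each gene's level in a tissue's recovered RNA. Because arrays fell into ranges, levels were compared after quantile normalization, which moved the median of all tested probe sets by 0.15 in bone marrow and by -0.08 to -0.01 elsewhere, and raised members in bone marrow by 0.07 to 0.77. Bone marrow levels thus depend on the scaling. These levels are of RNA recovered in a reaction without IRP2, and how far they follow whole tissue RNA was not tested. More cells of a type and more RNA per cell cannot be told apart either. By the F test, 7 of 12 member probe sets differed between tissues, against 81.9% of all tested, and on the deposited values 9 of 12, against 82.4%.

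Between pairs of tissues, the members called and the share of all tested were 2 of 12 and 20.5% for duodenum minus liver, 6 and 52.1% for duodenum minus spleen, 5 and 48.4% for duodenum minus bone marrow, and 3 and 42% for duodenum minus brain. They were 4 and 55.9% for liver minus spleen, 5 and 52% for liver minus bone marrow, and 3 and 43% for liver minus brain. They were 4 and 27.9% for spleen minus bone marrow, 2 and 43.7% for spleen minus brain, and 3 and 51.9% for bone marrow minus brain. In all 10 pairs, the members' share stayed near or below that of all probe sets.

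Glrx5 varied widely between tissues. Its quantile-normalised log2 level was 12.28 and 12.50 in bone marrow, 11.53 and 11.67 in spleen, 11.08 and 10.86 in liver, 10.34 and 10.50 in duodenum, and 9.99 and 10.45 in brain. The bone marrow arrays lay above all others and spleen came next. Bone marrow exceeded brain by 2.17 ± 0.20 (SE, limma adjusted p = 2.59e-07), duodenum lay below spleen by -1.18 ± 0.20 (adjusted p = 0.00022), and duodenum minus liver, at -0.55 ± 0.20 (adjusted p = 0.0638), and duodenum minus brain, at 0.20 ± 0.20 (adjusted p = 0.437), did not pass the test, although the duodenum and liver arrays did not overlap. Spleen minus bone marrow was -0.79 ± 0.20 (adjusted p = 0.00942) but 0.30 on the deposited values, so the order of these 2 tissues turns with the scaling. Liver minus bone marrow, at -1.42 (adjusted p = 2.93e-05), likewise became -0.43 on the deposited values, with an adjusted p of 0.215. Of the listed erythroid markers, 3 were on the array, and 2 of these 3 lay above the array median in every bone marrow and spleen array and 0 in the others. Their mean deposited value was 8.82 and 8.75 in control bone marrow and 7.91 and 8.02 in control spleen, against 3.98 to 4.18 in the other control arrays. Slc4a1, the red cell anion exchanger, had 12.28 and 12.24 in control bone marrow, and Epb42, a red cell membrane protein, had 10.20 and 10.33. The probe set of the alpha-globin gene Hba-a1 was dim, at 3.99 and 3.67 in control bone marrow and 3.83 and 3.70 in control spleen, against 4.71 and 4.85 in control duodenum. The part of erythroid cells in the Glrx5 levels was not tested.

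Isca1 was highest in bone marrow on both probe sets. On 1423652_at its log2 level was 9.47 and 9.81 in bone marrow, 7.92 and 8.07 in spleen, 7.51 and 7.53 in liver, 7.53 and 7.50 in duodenum, and 7.09 and 6.94 in brain. The bone marrow arrays stood above all 8 others, by 2.63 ± 0.20 over brain (SE, limma adjusted p = 4.13e-08), and spleen minus bone marrow was -1.65 ± 0.20 (adjusted p = 4.88e-05). This held on the deposited values, at -0.86 for spleen minus bone marrow (adjusted p = 0.0087). On 1423651_at bone marrow had 10.95 and 11.29, brain 9.77 and 10.51, spleen 9.80 and 10.02, duodenum 8.77 and 9.02 and liver 8.58 and 8.73. The probe sets disagreed on brain, which came last on 1423652_at and second on 1423651_at, where bone marrow minus brain was 0.98 ± 0.40 (adjusted p = 0.0559). On that probe set spleen minus bone marrow was -1.21 (adjusted p = 0.0385), but -0.19 on the deposited values, with an adjusted p of 0.743.

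Bola3 was highest in liver. Its log2 level was 10.72 and 10.73 in liver, 10.50 and 10.23 in duodenum, 9.91 and 9.64 in bone marrow, 9.67 and 9.81 in spleen, and 9.43 and 9.06 in brain. Liver exceeded brain by 1.48 ± 0.20 (SE, limma adjusted p = 1.96e-05) and spleen by 0.98 ± 0.20 (adjusted p = 0.00091), while duodenum minus liver, at -0.36, did not pass. Bone marrow minus brain was 0.53 (adjusted p = 0.0386), but -0.19 on the deposited values.

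Iscu, and Nfs1 on its brightest probe set, varied less and were lowest in duodenum. Iscu was 7.88 and 8.14 in duodenum, against means of 8.55 in brain, 8.73 in liver, 8.78 in spleen and 8.82 in bone marrow, and no difference among those other tissues passed after quantile normalization. Spleen minus bone marrow, at -0.04, was 0.69 on the deposited values (limma adjusted p = 0.0438). Duodenum minus spleen was -0.77 ± 0.21 (SE, limma adjusted p = 0.0067) and passed on the deposited values too (adjusted p = 0.0038). Duodenum minus liver, brain and bone marrow passed only after quantile normalization. On the deposited values their limma adjusted p was 0.0593, 0.0530 and 0.308. Nfs1 on 1416373_at was 8.12 and 8.24 in duodenum, against 9.03 and 9.08 in liver, a difference of -0.88 ± 0.22 (adjusted p = 0.0076). The other tissues lay between, and no neighbours in the order passed the test. On the deposited values bone marrow, at a mean of 8.01, was below duodenum, at 8.22. The dimmer Nfs1 probe sets did not pass the F test (limma adjusted p = 0.148 for 1431431_a_at and 0.373 for 1442017_at). On 1431431_a_at spleen was lowest, and duodenum came next after liver.

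Isca2, Hscb and Nfu1 1418229_s_at did not pass the F test after quantile normalization (limma adjusted p = 0.316, 0.199 and 0.272). Isca2 and Nfu1 1418229_s_at had 0.47 and 0.39 between the highest and lowest tissue on the log2 scale, against a median of 1.47 over all tested probe sets. On the deposited values these ranges were 1.18 and 1.17, and both probe sets passed the F test (adjusted p = 0.0169 and 0.0306). Nfu1 1418228_at was called, with 9.57 and 9.43 in spleen and 8.60 and 7.35 in bone marrow, where spleen minus bone marrow was 1.52 ± 0.42 (SE, adjusted p = 0.0154). Without control bone marrow replicate 2 this difference was 0.90 and no longer a call (adjusted p = 0.245), and the call was also lost without either control spleen array. Hscb spanned 1.44 between liver and spleen, with brain replicates at 9.71 and 7.96.

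**Figure D5:**
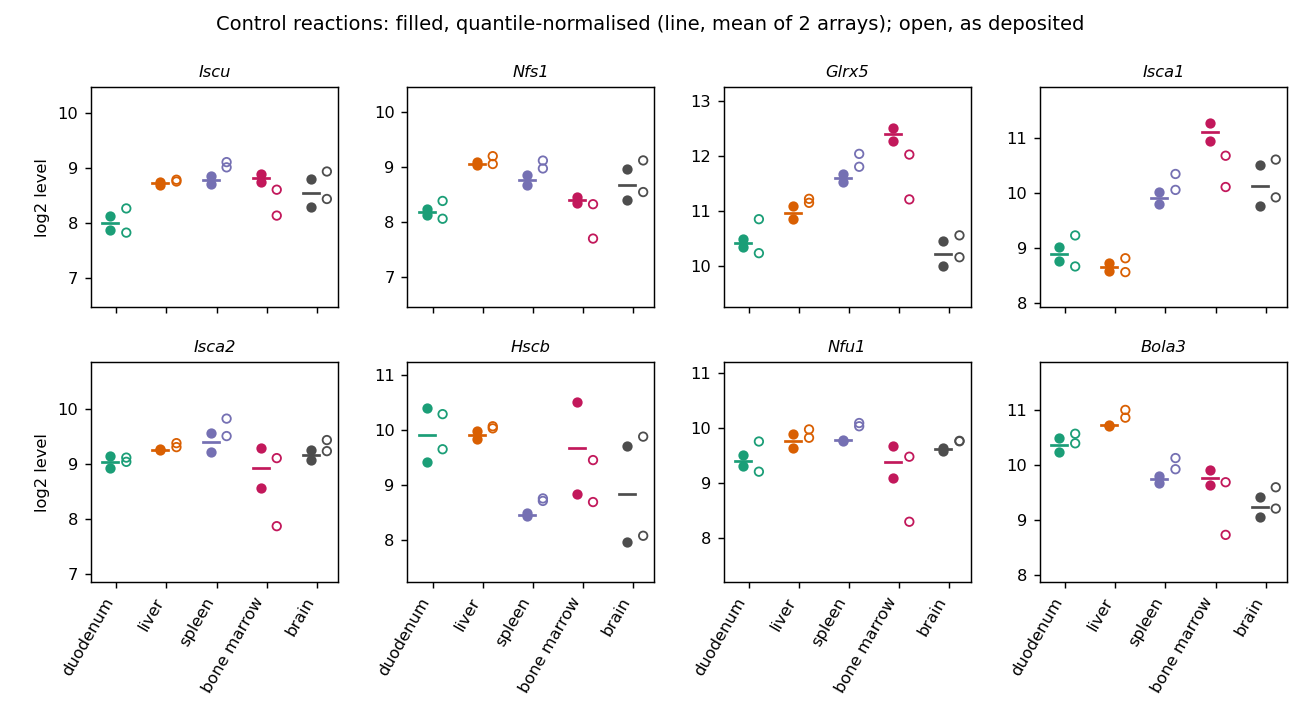
Log2 level of the brightest probe set of each member in the 2 control arrays of each tissue, after quantile normalization (filled points, with the mean as a line) and as deposited (open points). Glrx5 and Isca1 are highest in bone marrow on the filled points, spleen passes bone marrow for Glrx5 on the open points, Bola3 is highest in liver, and the Hscb replicates in brain lie far apart.

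Across the 10 control arrays, the member pair with the highest correlation of levels was Isca2 and Nfu1 (Pearson r = 0.796), and the lowest was Isca1 and Bola3 (r = -0.762). These points share tissues and arrays, so the values only describe. This holds too for the most alike genes, whose r is the highest of 25130 to 25132 probe sets compared over these 10 arrays. In that comparison the closest other member ranked between 96 (Nfu1 for Isca2) and 5457 (Hscb for Bola3). The gene most like each member, among tested probe sets with 1 symbol, was Ccnf for Glrx5 (r = 0.991), Ache for Isca1 (r = 0.988), Chchd3 for Bola3 (r = 0.980), Wdr45 for Iscu (r = 0.974), Ide for Nfs1 (r = 0.969), Trp53i11 for Hscb (r = 0.993), Sap30bp for Nfu1 (r = 0.966) and 1110002L01Rik for Isca2 (r = 0.935).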

How the data were processed

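The members and lists were chosen with earlier results of these data known. The authors deposited log2 summaries of probe sets, made with RMA, or with MAS5 in GCOS followed by quantile normalization, per the series' design text and the submitters' processing notes; the text does not say which array had which, and the values lie between 1.77 and 15.0. Gene symbols came from the platform annotation. After 64 Affymetrix controls were set aside, 30153 of 45037 probe sets were tested, those at or above the array median on at least 2 of 20 arrays. limma 3.58.1 in R 4.3.3 fitted a mean for each of 10 groups (10 residual degrees of freedom, prior 5.34), with Benjamini-Hochberg adjustment and an adjusted p under 0.05 as a call. Control levels were tested after quantile normalization of all 20 arrays. Arrays give no read depth, and 2 per group limit the precision.

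Same-numbered IRP2 and control arrays deviated together from their group means, with correlations of 0.923 (brain), 0.676 (duodenum), 0.565 (liver), 0.385 (spleen) and 0.251 (bone marrow). Replicate numbers thus paired the arrays, a pairing that comes from the values, and a second fit had tissue and number as a block (prior 7.52 on 5 residual degrees of freedom). Alternatives were other scalings, filters, a variance trend, fewer tissues and leaving out each array. Named genes were all members, the IRE mRNAs Tfrc, Slc11a2, Alas2 and Fth1, and up to 4 genes of each list by smallest p. Slc40a1, Epas1, Slc4a1, Epb42, Hba-a1, Gfap, Alb, Fabp2, Slc25a28, Pold1, Ercc2, Mutyh, Brip1 and Rsad1 were named after their values were seen. A gene's brightest probe set has the highest mean over control arrays. Promoter windows are from RefSeq (GRCm38.p6), with none used here for Iscu and Hscb. The fits were tested on simulated data.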

Additional observations from a re-analysis of the deposited data

How the results depend on the processing

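The count of 0 member calls held under every alternative for the mean over tissues and for duodenum, liver, spleen, brain and the difference between tissues, including the replicate block, other scalings, both other filters, the variance trend and each array left out. In bone marrow, leaving out 1 array gave 0 to 2 calls. The replicate block moved the cytosolic list to 1 call (Ciapin1) and changed no member call. Of 335 alternative values of the members' mean differences, 321 kept their sign, 14 turned and 0 were called. Over 4 tissues without bone marrow, Nfs1 1416373_at became 0.022 and Nfu1 1418228_at 0.0024. Over the 3 iron-poor tissues, Nfs1 1416373_at became 0.066, Isca1 1423651_at 0.044 and Hscb -0.0250. With each array left out, Nfs1 1416373_at ran from -0.11 to 0.018, Nfs1 1442017_at from -0.077 to 0.020, Hscb from -0.063 to 0.30, Nfu1 1418229_s_at from -0.20 to 0.032 and Bola3 from -0.18 to 0.015.

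The count of members whose control level differed between tissues was 7, and ran from 5 (without control duodenum replicate 1) to 8 with each control array left out. Tissue and replicate number as a random replicate block (correlation 0.612) also gave 7. Of 629 alternatives of 37 called differences, 529 kept the call, 96 lost it and 4 turned. Spleen minus bone marrow for Glrx5 became 0.30 on the deposited values and 0.39 with each array centred on its median. Bone marrow minus brain for Bola3 became -0.19 and -0.14. Quantile normalization widens the narrow bone marrow arrays by construction.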

Other observations

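Among the pathway lists, control levels of 10 of 10 other mitochondrial assembly genes differed between tissues by the F test (limma, quantile-normalised values), as did 14 of 21 cluster-holding proteins and 6 of 11 cytosolic assembly genes, against 24708 of all 30153 tested probe sets (81.9%). After quantile normalization, bone marrow was the highest tissue for 3 of 8 members on their brightest probe set, Iscu, Glrx5 and Isca1. On the deposited values spleen was the highest for Iscu and Glrx5. For the lists, the highest tissue is given after quantile normalization only. Bone marrow was the highest for 2 of 11 cytosolic assembly genes and for 3 of 10 other mitochondrial assembly genes. The mitochondrial genes were Slc25a37 (F test, limma adjusted p = 1.86e-07), Slc25a28 (adjusted p = 0.0028) and Iba57 (adjusted p = 0.0081). Bone marrow was also the highest for 7 of 21 cluster-holding proteins. These 7 were Pold1 (adjusted p = 6.86e-10), Fech (adjusted p = 2.37e-09), Brip1, Rtel1 and Ercc2, and also Mutyh (adjusted p = 0.0542) and Rsad1 (adjusted p = 0.814), which both failed the F test. Over all tested probe sets bone marrow was the highest tissue for 7343 of 30153. Slc25a37 supplies mitochondria of red cell precursors with iron, and Fech inserts iron into heme. The part of erythroid cells in these levels was not tested.

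Hscb levels ran with replicate number in both reactions. Replicate 1 minus replicate 2 was 1.71 with IRP2 and 1.802 in the control reactions in brain, 1.03 with IRP2 and 0.64 in the control reactions in duodenum, and -1.17 with IRP2 and -0.76 in the control reactions in bone marrow. What sets these replicates apart was not tested.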
